A study of Mus musculus with 16 samples.

Results

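The genes described here are a pair of FGF ligands and 8 feedback genes of FGF and ERK signaling, read as transcripts in mouse pulmonary ECs. They were chosen by name, as Fgf1, Fgf2, Spry1, Spry2, Spry4, Spred1, Spred2, Dusp6, Etv4 and Etv5, which are 10 of the 54532 genes listed in the files. Of the 10, 9 had a mean of at least 0.5 FPKM (fragments counted on a gene, relative to gene length and library size) in each experiment and were tested, and Etv4 was below that level in both. In the first experiment, male C57/BL6J WT mice of 8 weeks received saline (n = 4) or 10 mg/kg LPS (n = 6), the bacterial lipopolysaccharide, into the trachea. In the second, 3 Fgfr1 loxP/loxP and 3 Fgfr1 iΔEC/iΔEC mice received 2 mg/kg LPS by the same route, and these were adult mice, as the study says of the iΔEC/iΔEC mice, with no age in weeks or sex given in the sources used here. The iΔEC/iΔEC mice carry floxed Fgfr1 and a tamoxifen-inducible Cre recombinase (CreERT2) driven by the VE-cadherin promoter, which is active in ECs. Mice of both genotypes received tamoxifen before LPS. No library came from a mouse of either genotype without LPS, so the second experiment holds no LPS effect within a genotype. ECs were taken from digested lung 24 h after LPS or saline, by bead depletion of CD45+ cells and bead selection of CD31+ cells. Reads on genes numbered 13478726 to 19043015 per library.

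FGF ligands bind tyrosine kinase receptors on the cell surface together with heparan sulfate, and the adaptor FRS2 links the receptor to RAS, RAF, MEK and ERK. Active ERK then induces genes that act back on the same cascade: the Sprouty proteins (Spry1, Spry2, Spry4) and the Spred proteins (Spred1, Spred2) restrain it at the level of RAS and RAF, the phosphatase DUSP6 removes the activating phosphates from ERK, and the ETS factors ETV4 and ETV5 carry the signal to target genes. In ECs VEGF and other growth factors use the same cascade.

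In LPS over saline the 9 tested genes moved in both directions. Dusp6, Spry4 and Spred1 rose, Fgf1, Fgf2, Spry2 and Spred2 fell, and Spry1 and Etv5 did not pass the test (limma with Benjamini-Hochberg adjustment over 14893 genes, adjusted p at or under 0.05). These 7 of 9 calls stand beside 53.2% of all genes tested, with 29.5% called higher and 23.7% called lower, so that more genes were called than not. At a log2 fold change of at least 1 in either direction, 3 of the 9 passed (Fgf1, Spry4 and Dusp6), against 18.7% of all genes (1768 higher and 1011 lower). This count depends on the scale, and with a pseudocount of 0.1 FPKM, which compresses low values less, Fgf2 (-1.17) and Spry2 (-1.04) passed as well, beside 2331 genes higher and 1840 lower. By limma-voom 5 members also passed, beside 2355 and 2008 genes, and on total reads or under quantile normalization 4. Scaled on the endothelial markers 3 passed, with Spred1 (1.02) in place of Fgf1 (-0.78), beside 4374 genes higher and 204 lower. Every LPS library lay on the same side of every saline library in 5 of the 9 (Fgf1, Fgf2, Spry2, Spred2 and Dusp6), against 39.4% of all genes tested. Over all genes tested 4399 were higher and 3529 lower, and this split moved with the scaling, to 3464 and 4678 on total reads, 3570 and 4295 under quantile normalization and 7285 and 784 on the endothelial markers. Of the 9, 4 were called higher and 1 lower on the endothelial markers, and 2 higher and 4 lower on total reads or under quantile normalization. The median log2 fold change of the 9 was 0.05 and that of all genes tested was 0.01.

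**Figure D1:**
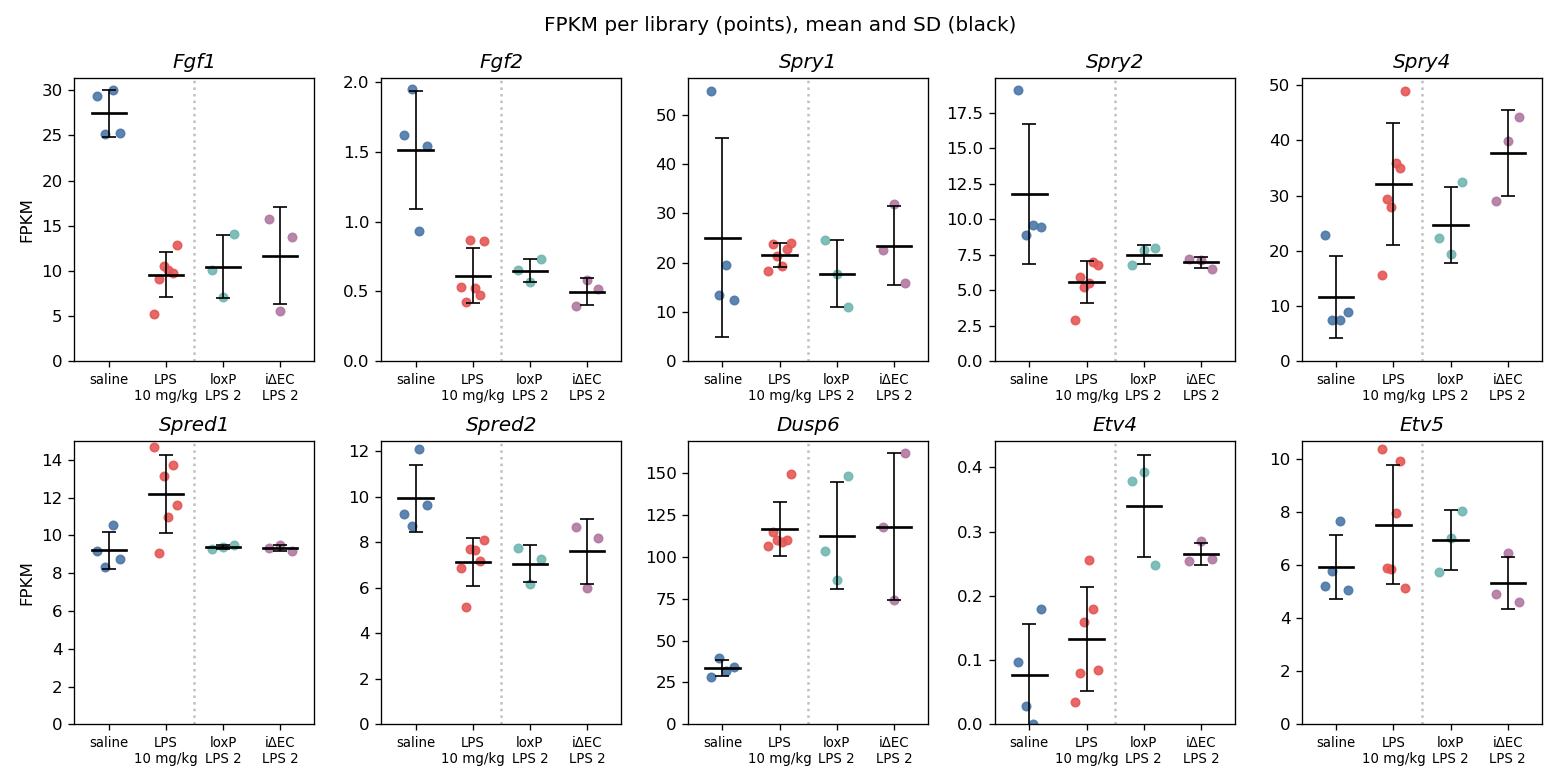
FPKM of the 10 genes in every library, with 1 panel per gene, the 4 groups on the horizontal axis, points for libraries and black bars for the mean and SD. The dotted line parts the experiments, which were normalized separately. Dusp6 and Fgf1 have LPS libraries that are all apart from the saline libraries, and saline 1 stands above the rest of its group in Spry1, Spry2 and Spry4.

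Saline 1 stood apart from the other saline libraries in all 3 Sprouty genes, with 54.9 FPKM against 12.5 to 19.6 FPKM for Spry1, 19.1 against 8.92 to 9.63 FPKM for Spry2 and 22.8 against 7.52 to 8.86 FPKM for Spry4. This library also had the fewest reads on genes, 13478726 against 16184866 to 18807007 in the other saline libraries. Its summed marker levels were the highest of the saline libraries in 8 of 9 lists of cell type markers, all but the lymphocyte list. They were furthest above in the neutrophil list (1382 FPKM against 71.4 to 309 FPKM) and the mural list (119 against 24.1 to 44.5 FPKM), and the endothelial sum was 5429 FPKM against 3276 to 4066 FPKM. By mean log2(FPKM + 1), saline 1 was below saline 3 in the endothelial (8.01 against 8.09) and macrophage lists (3.46 against 3.67). It was also below saline 2 in the fibroblast list (2.70 against 2.77). The members, the marker lists and the pathway lists were therefore also compared without this library, the last 2 of these by a choice made after seeing the data. Without it 7 of the 9 genes were again called, but Spry1 joined the genes that rose and Spred1 was lost.

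The bead fraction was read with lists of marker genes, since the LPS and saline fractions could hold other cells. Counts of called markers stand beside 29.5% of all genes called higher and 23.7% called lower. Endothelial markers such as Cldn5, the most abundant at 1533 and 1058 FPKM on average in saline and LPS, made up 3276 to 5429 FPKM per saline library and 1434 to 3382 FPKM per LPS library. Mean log2(FPKM + 1) over the 10 endothelial markers differed by -0.72 between LPS and saline (two-sided exact permutation p = 0.00952, adjusted over 9 lists 0.0286), and by limma 6 of the 10 fell and 0 rose. Cldn5 was among the 4 not called (-0.50, limma adjusted p = 0.331). The log2 fold changes within this list were uneven, from -1.63 to -0.12. Leukocyte markers, all 6 of which rose, had a sum of 76.5 to 228 FPKM in saline and 641 to 1554 FPKM in LPS libraries, although the CD45+ cells had been depleted, and Coro1a was the most abundant of them (47.3 and 446 FPKM on average). Macrophage markers (6 of 8 higher, 1 lower, led by Lyz2 at 649 and 2568 FPKM) and neutrophil markers (6 of 8 higher, led by S100a9 at 259 and 1864 FPKM) rose as well. The difference in the list mean was 2.78 for leukocytes, 2.71 for macrophages and 2.34 for neutrophils, with an adjusted exact permutation p of 0.0286, 0.0286 and 0.0429. The erythroid list, led by Hba-a1 (6.97 and 19.2 FPKM), was higher by 0.98 with 2 of 3 tested genes called (adjusted exact permutation p = 0.0429). Lymphocyte markers, with Cd79a at 54.6 and 16.7 FPKM, differed by -1.01 (3 of 5 lower, adjusted exact permutation p = 0.049) and fibroblast markers, with Col3a1 at 15.4 and 8.51 FPKM, by -0.47 (4 of 6 lower, adjusted exact permutation p = 0.0429). The epithelial list, led by Sftpc (1316 and 280.1 FPKM), differed by -0.54 (2 of 9 lower, adjusted exact permutation p = 0.257) and the mural list, led by Acta2 (27.1 and 31.2 FPKM), by -0.28 (1 of 7 lower, adjusted exact permutation p = 0.419). Without saline 1, an alternative chosen after seeing the data, the endothelial, leukocyte, neutrophil, macrophage and erythroid lists differed by -0.71, 3.01, 2.99, 2.73 and 1.17, each with groups apart (adjusted exact permutation p = 0.0429 for all 5). The lymphocyte and fibroblast lists, at -0.89 and -0.44, then did not pass (adjusted exact permutation p = 0.122 and 0.107), and the epithelial and mural differences were -0.23 and 0.00. No marker was at 0 in all libraries. These shifts move with the treatment in the same libraries as the FGF and feedback genes, and their part in the results below was not tested. In a bulk fraction, fewer cells of a type and less RNA per cell cannot be told apart.

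**Figure D2:**
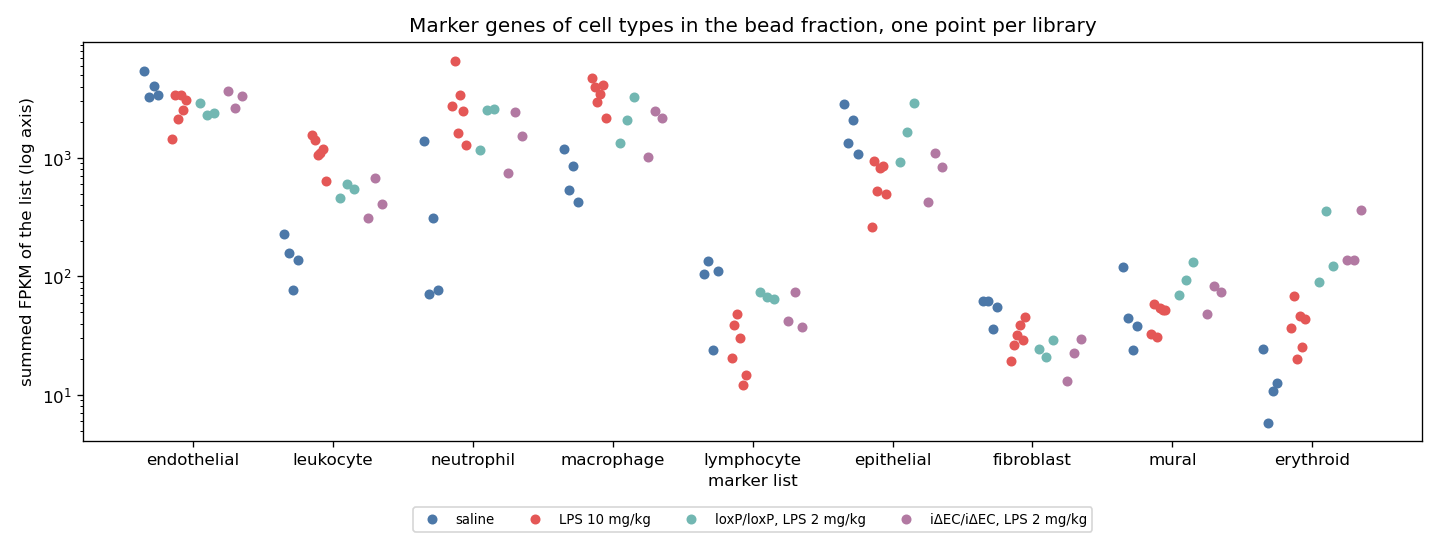
Summed FPKM of 9 lists of cell type markers, on a log axis, with 1 point per library and 1 colour per group. Leukocyte and macrophage sums of all 6 LPS libraries lie above those of all 4 saline libraries, and in the second experiment the genotypes overlap in all 9 lists.

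Both ligands fell. Fgf1, a ligand of all FGF receptors that leaves cells without a signal peptide, lies on the minus strand of chromosome 18 of GRCm38 (ENSMUSG00000036585, 38838673 to 38929404). It was at 29.4, 25.1, 30.0 and 25.3 FPKM in saline libraries 1 to 4, and at 5.19 FPKM in the lowest, 9.96 at the median and 12.8 in the highest LPS library. No LPS library came near the saline libraries, which lay close together. The mean fell from 27.5 ± 2.60 FPKM in saline to 9.60 ± 2.51 FPKM in LPS (SD, n = 4 and 6), which is 2.86 times lower, and limma gave -1.46 on the log2 scale (SE, the standard error, 0.19, adjusted p = 0.000115). Scaling the libraries on the endothelial markers, which shifted the median of all genes to 0.57, moved it to -0.78 (limma adjusted p = 0.00176), and without saline 1 it was -1.43.

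Fgf2, basic FGF, is a heparin-binding mitogen of ECs, and its gene is on the plus strand of chromosome 3 (ENSMUSG00000037225, 37348346 to 37410108). Its level was low, at 1.62, 1.95, 0.933 and 1.54 FPKM in saline 1 to 4 and at 0.427 to 0.866 FPKM in LPS with a median of 0.528. Saline 3 came closest to the LPS libraries, and none overlapped. The reads behind these values numbered 113 to 292 per saline and 47 to 111 per LPS library. The mean fell from 1.51 ± 0.422 FPKM in saline to 0.614 ± 0.196 FPKM in LPS (SD, n = 4 and 6), a ratio of 2.46, while on the log2(FPKM + 1) scale, which draws low values together, the change was -0.63 (SE 0.15, limma adjusted p = 0.00415). With a pseudocount of 0.1 FPKM it was -1.17, and by limma-voom on the read numbers -1.30. It was not called when libraries were scaled on the endothelial markers (-0.27, limma adjusted p = 0.247). Nudt6, on the opposite strand, shares 640 bases with the exons of Fgf2 (9.4% of them) and changed from 2.05 to 1.33 FPKM, by -0.42 (limma adjusted p = 0.0496). Whether the reads were counted by strand is not given in the sources used here, so reads of this overlap cannot be told apart.

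The other FGF ligands were mostly below the level tested. Of 20 further ligand genes in the files 3 were tested, and, beside 23.7% of all genes tested, 2 of them fell. These are Fgf7 (1.78 to 0.837 FPKM, log2 fold change -0.60, limma adjusted p = 0.00521) and Fgf10 (1.05 to 0.351 FPKM, -0.60, limma adjusted p = 0.00262), ligands that mesenchymal cells make for epithelium. Fgf11, an FGF that stays inside the cell, was at 2.14 and 1.36 FPKM and was not called (-0.41, limma adjusted p = 0.0584). Fgf1 was thus the most abundant FGF transcript of those tested in both groups.

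Among the feedback genes chosen by name Dusp6 had the largest log2 fold change when all libraries were used. Without saline 1 it was 1.69, against 1.81 for Spry4. Dusp6 is on the plus strand of chromosome 10 (ENSMUSG00000019960, 99263231 to 99267489). It was at 28.4, 39.4, 32.1 and 34.4 FPKM in saline 1 to 4, and at 107 FPKM in the lowest, 110.0 at the median and 149 in the highest LPS library. LPS 6 was the highest, the other 5 LPS libraries lay within 107 to 115 FPKM, and all were above every saline library. The mean rose from 33.6 ± 4.59 FPKM in saline to 117 ± 16.2 FPKM in LPS (SD, n = 4 and 6), which is 3.47-fold higher, and limma gave 1.77 on the log2 scale (SE 0.14, adjusted p = 3.21e-06). Over all alternative settings it stayed between 1.27 (quantile normalization) and 2.48 (scaling on endothelial markers) and passed the test in each.

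The promoter windows of Dusp6 and Spry2 are shown because these genes moved in opposite directions and the start site within both windows is the one in the files. They are from RefSeq (GRCm38.p6) and hold 300 bases, most of them upstream of the start site, at chr10:99262981-99263280 on the plus strand and chr14:105896770-105897069 on the minus strand. Capitals mark a match to CCGGAA, 1 form of ETS factor site. The Dusp6 window has no match to this form, though it holds the shorter core GGAA.
Dusp6: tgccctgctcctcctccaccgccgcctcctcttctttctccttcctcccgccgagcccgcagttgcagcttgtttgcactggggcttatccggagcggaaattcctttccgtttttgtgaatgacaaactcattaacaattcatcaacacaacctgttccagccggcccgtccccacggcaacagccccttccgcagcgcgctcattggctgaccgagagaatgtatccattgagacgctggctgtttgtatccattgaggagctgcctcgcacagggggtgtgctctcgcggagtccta
Spry2: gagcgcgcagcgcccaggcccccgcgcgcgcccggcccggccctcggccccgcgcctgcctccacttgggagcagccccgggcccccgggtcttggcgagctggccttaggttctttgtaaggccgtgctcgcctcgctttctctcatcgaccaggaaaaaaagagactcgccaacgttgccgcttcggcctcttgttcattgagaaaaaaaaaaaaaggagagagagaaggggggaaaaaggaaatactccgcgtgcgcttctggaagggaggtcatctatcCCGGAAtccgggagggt
CCGGAA was searched on both strands with TGACTCA (AP-1), TGACGTCA (CRE), TGAATGAA and TGAATGGA. RefSeq had windows for 7 of the 10 genes, with no entry used for Etv4, Fgf1 and Spry4. The match in Spry2 was the only one found in any of these windows. It lies at base 284 of 300, which is 33 bases downstream of the start site. Of 32851 RefSeq promoter windows 14.9% held CCGGAA, 5.2% TGACTCA, 1.79% TGACGTCA, 1.3% TGAATGAA and 1.21% TGAATGGA. A match describes the letters of a window and shows no binding.

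Of the 3 Sprouty genes Spry4 rose, Spry2 fell and Spry1 was not called. Spry4, on the minus strand of chromosome 18 (ENSMUSG00000024427, 38586268 to 38601268), was at 22.8 FPKM in saline 1 and at 7.54, 7.52 and 8.86 FPKM in saline 2 to 4, and LPS libraries ran from 15.6 FPKM over a median of 32.1 to 49.0 FPKM. Only LPS 1, the lowest of its group, was below saline 1, and apart from this pair the groups did not overlap. Spry4 rose from 11.7 ± 7.44 FPKM in saline to 32.1 ± 11.0 FPKM in LPS (SD, n = 4 and 6), which is 2.75-fold, and limma gave 1.46 on the log2 scale (SE 0.34, adjusted p = 0.00412). Without saline 1 the change was 1.81 (limma adjusted p = 0.000446), and over the fits that each left out 1 library it was 1.32 to 1.81 and called in all 10.

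Spry2 moved the opposite way. Its gene is on the minus strand of chromosome 14 (ENSMUSG00000022114, 105891947 to 105896819), and it was at 19.1, 8.92, 9.63 and 9.45 FPKM in saline 1 to 4, against 2.89 to 7.0 FPKM in LPS with a median of 5.76. The groups did not overlap, with saline 1 far above its group and LPS 1 far below the others. The mean fell from 11.8 ± 4.91 FPKM in saline to 5.58 ± 1.48 FPKM in LPS (SD, n = 4 and 6), and limma gave -0.93 on the log2 scale (SE 0.24, adjusted p = 0.00767). Without saline 1 it was -0.69 (limma adjusted p = 0.0158), and scaled on the endothelial markers it was -0.29 and not called (limma adjusted p = 0.276).

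Spry1 depended on a single library. On the plus strand of chromosome 3 (ENSMUSG00000037211, 37639947 to 37644598), it was at 54.9, 13.5, 19.6 and 12.5 FPKM in saline 1 to 4, and at 18.3 to 24.1 FPKM in LPS with a median of 22.1. The LPS libraries fell between saline 1 and the rest and overlapped the rest through saline 3. The log2 fold change was 0.05 (SE 0.33, 95% interval -0.68 to 0.77, limma adjusted p = 0.916), and without saline 1 it was 0.50 and called (limma adjusted p = 0.0172). Gm42922, of the opposite strand, shares 710 bases with the Spry1 exons (24.4%) but was listed at 0.129 and 0.0861 FPKM.

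Spred1 rose and Spred2 fell, but not under every scaling. Spred1, whose protein recruits neurofibromin to restrain RAS, was at 9.19, 8.33, 10.6 and 8.75 FPKM in saline 1 to 4 and at 9.05 to 14.7 FPKM in LPS, with a median of 12.4. LPS 2 lay within the saline range, and the other 5 LPS libraries were above it. The call of Spred1 by limma (0.36 on the log2 scale, SE 0.13, adjusted p = 0.0418) was lost in 8 of the 10 fits that left out 1 library, among them those without saline 1 (limma adjusted p = 0.0605) and without saline 2 (0.115), and also under scaling on total reads (0.18, limma adjusted p = 0.343), while under endothelial marker scaling it was 1.02 and called (limma adjusted p = 0.00715). Spred2, its paralog, was at 9.26, 8.73, 12.1 and 9.65 FPKM in saline 1 to 4 and at 5.15 to 8.12 FPKM in LPS, with a median of 7.42. Its groups did not overlap, LPS 2 being the lowest and saline 3 the highest library. The mean fell from 9.93 ± 1.49 FPKM in saline to 7.12 ± 1.06 FPKM in LPS (SD, n = 4 and 6), and limma gave -0.43 on the log2 scale (SE 0.13, adjusted p = 0.018). Without saline 3 it was -0.34 and not called (limma adjusted p = 0.063), and endothelial marker scaling turned it to 0.22. Spred1 is on the plus strand of chromosome 2 (ENSMUSG00000027351, 117121374 to 117182279) and Spred2 on the plus strand of chromosome 11 (ENSMUSG00000045671, 19924375 to 20024026).

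The ETS factors gave no call. Etv5, on the minus strand of chromosome 16 (ENSMUSG00000013089, 22381309 to 22439719), was at 5.21, 5.78, 7.67 and 5.05 FPKM in saline 1 to 4 and at 5.13 to 10.4 FPKM in LPS, with a median of 6.95. The ranges overlapped, 3 LPS libraries being above all saline libraries. Its log2 fold change was 0.27 (SE 0.20, 95% interval -0.16 to 0.71, limma adjusted p = 0.259), and only scaling on the endothelial markers made it a call (0.91, limma adjusted p = 0.0278). Etv4, on the minus strand of chromosome 11 (ENSMUSG00000017724, 101769742 to 101785371), had 0 to 11 reads per saline and 2 to 14 reads per LPS library, or at most 0.18 and 0.256 FPKM. Its groups overlapped (two-sided exact permutation p = 0.324).

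**Figure D3:**
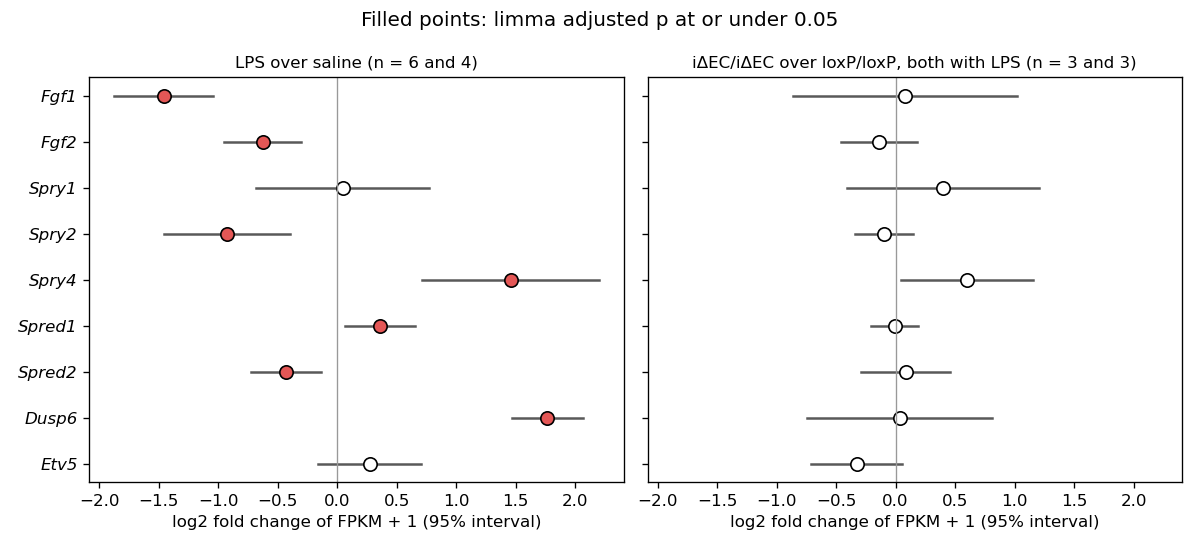
Log2 fold change of FPKM + 1 with its 95% interval from limma for the 9 tested genes, LPS over saline on the left and iΔEC/iΔEC over loxP/loxP on the right. In LPS over saline 7 genes pass the adjusted p of 0.05 (filled points), from Dusp6 at 1.77 to Fgf1 at -1.46, and on the right none does.

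Since FPKM are scaled by gene length, levels of different genes can be ordered within an experiment. In saline the order of the mean levels was Dusp6 (33.6 FPKM), Fgf1 (27.5), Spry1 (25.1), Spry2 (11.8), Spry4 (11.7), Spred2 (9.93), Spred1 (9.21), Etv5 (5.93), Fgf2 (1.51) and Etv4 (0.0767). With all 4 saline libraries, each neighbour from Dusp6 down to Spred1 differed from the next by less than the sum of their SDs. Without saline 1 the mean was 15.2 FPKM for Spry1, 9.33 for Spry2 and 7.97 for Spry4, which put Spry2 in the fifth and Spry4 in the seventh place of the 10. In LPS the order was Dusp6 (117 FPKM), Spry4 (32.1), Spry1 (21.6), Spred1 (12.2), Fgf1 (9.60), Etv5 (7.53), Spred2 (7.12), Spry2 (5.58), Fgf2 (0.614) and Etv4 (0.132). Here only the neighbours Dusp6 and Spry4, Spry1 and Spred1, Spry2 and Fgf2, and Fgf2 and Etv4 differed by more than the sum of their SDs. Fgf1 thus went from the second to the fifth place and Spry4 from the fifth (the seventh without saline 1) to the second, while Dusp6 was the highest in both.

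Fgf1 and Spry4 lie on chromosome 18, 237 kb apart by the coordinates in the files, and moved in opposite directions. Fgf2 and Spry1 lie 230 kb apart on chromosome 3, where Fgf2 fell and Spry1 was not called.

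The genes whose pattern over the 10 libraries was most like each member were found by the root mean square difference of log2(FPKM + 1) after centring each gene. For Fgf1 they were Plcg1 (0.105), the gene of phospholipase C gamma 1, from 49.8 to 17.7 FPKM on average, and Plpp3 (0.114), from 70.5 to 27.3 FPKM. For Dusp6 they were AC113595.1 and Serpina3i (0.206 each), both of which were under 1 FPKM in saline and are at 4.71 and 2.65 FPKM in LPS, so that even the closest patterns differed from it more than for Fgf1. Spry4 had the least close pair, Cdc42ep4 (0.217) and Slc25a25 (0.258). Spry2 was nearest to Coro2b (0.161) and Sh3bp4 (0.162), Spry1 to Scnn1a (0.169) and AA986860 (0.186), and Spred1 to Cse1l (0.075) and Gm17089 (0.092). Spred2 was nearest to Pcdhga12 (0.099) and Oxr1 (0.1), Fgf2 to Sesn3 (0.082) and Arhgef18 (0.089), and Etv5 to Gm14176 (0.148) and Trip13 (0.169). Low genes vary little on this scale, which favours them in the search.

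The rest of the pathway was followed in lists of genes from receptor to nucleus. Their counts stand beside 53.2% of all genes called, 29.5% higher and 23.7% lower, and were not tested against these shares. Counts and medians of these lists are given under 1 scaling only. Scaling on the endothelial markers, under which the lists were not counted, moved the median of all genes to 0.57. Among FGF receptors and coreceptors, 9 of the 15 tested fell and 3 rose, with a median log2 fold change of -0.63. The called genes with the greatest change were Sdc4, a heparan sulfate proteoglycan that rose from 13.3 to 50.6 FPKM (1.86, limma adjusted p = 3.13e-05), Fgfr4, which fell from 3.44 to 0.320 FPKM (-1.68, limma adjusted p = 6.65e-05), and the glypican Gpc3, which fell from 6.01 to 1.61 FPKM (-1.42, limma adjusted p = 3.61e-05). The other syndecans that rose were Sdc1 (7.16 to 17.3 FPKM, 1.26) and Sdc3 (44.2 to 60.8 FPKM, 0.45), while Sdc2 fell from 6.40 to 1.86 FPKM (-1.36), so that these coreceptors went both ways. Of the 12 receptor-proximal adaptors 5 rose and 3 fell (median 0.11), led by Grb2 (43.5 to 84.6 FPKM, 0.93), Cbl (8.74 to 15.8 FPKM, 0.72), a ubiquitin ligase for receptors, and Gab1 (11.0 to 6.81 FPKM, -0.63). Frs2, which couples FGF receptors to GRB2, fell from 4.87 to 2.97 FPKM (-0.57, limma adjusted p = 0.0313), as did its relative Frs3 (-0.47), and Shc1 (0.57), Ptpn11 (0.43), which encodes the phosphatase SHP2, and Crk (0.41) rose.

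The RAS-RAF-MEK-ERK cascade had 8 of 16 genes higher and 3 lower (median 0.33), beside 29.5% and 23.7% of all genes tested. The largest called changes were in both MEK genes, Map2k1 (19.6 to 43.6 FPKM, 1.11, limma adjusted p = 3.35e-05) and Map2k2 (14.1 to 30.3 FPKM, 1.03). The 3 that fell were Araf (-0.52), the scaffold gene Ksr1 (-0.41) and Rasa1 (-0.54), the gene of a RAS GTPase-activating protein. Of 15 other feedback genes of ERK signaling 6 rose, 3 fell and 6 were not called (median -0.03). Those that rose most were the phosphatase genes Dusp5 (2.54 to 29.0 FPKM, 3.03, limma adjusted p = 1.56e-05) and Dusp2 (5.08 to 37.0 FPKM, 2.73), and Ier3 (78.1 to 449 FPKM, 2.49), an early response gene. Both phosphatases act on ERK in the nucleus, while DUSP6 acts in the cytoplasm. Il17rd, the gene of SEF, a membrane inhibitor of FGF signaling, fell from 11.9 to 3.40 FPKM (-1.60, limma adjusted p = 0.000115). The phosphatase gene Dusp7 (-0.65) and Lrig1 (-0.62), whose protein restrains receptor kinases, fell as well.

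Immediate early genes, which ERK and other kinases induce within minutes, had 8 of 12 higher and 1 lower, with a median of 1.34. Over all genes tested 29.5% were higher and 23.7% lower. Nr4a1 rose from 13.2 to 184 FPKM (3.80, limma adjusted p = 1.74e-05), Junb from 86.8 to 281 FPKM (2.03) and Myc from 2.44 to 11.7 FPKM (1.91), while Jun fell from 346 to 258 FPKM (-0.43, limma adjusted p = 0.0297). Of 14 partners and regulators of the 10 genes 4 rose and 4 fell (median 0.11). Anxa2 rose from 85.0 to 244 FPKM (1.58), Cav1, a caveolin of ECs, fell from 656 to 266 FPKM (-1.34, limma adjusted p = 0.000749), and Atxn1, a partner of the ETV repressor CIC, fell from 2.37 to 1.02 FPKM (-0.73). Siah2 (0.55), Cop1 (0.40) and Tsg101 (0.40) also rose, and Atxn1l (-0.50) and Nudt6 also fell.

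Without saline 1, 10 of the 87 tested genes in these lists changed their call. Fosl2, an AP-1 subunit (1.16 with it and 2.02 without it), and Errfi1, a feedback inhibitor of the EGF receptor (-0.21 and 0.63), then rose, and Fgf11 (-0.56), Epha4 (-1.0), Fosl1 (-0.46) and Dcaf4 (-0.42) then fell. The calls of Gpc4 (-0.49), Frs2 (-0.44), Jun (-0.40) and Atxn1l (-0.41) were lost. The counts became 8 lower and 3 higher for receptors, 2 lower and 5 higher for adaptors, 9 higher and 1 lower for immediate early genes, and 7 higher and 4 lower for the other feedback genes, whose median moved from -0.03 to 0.27. Junb was at 2.59 in this fit, in which 4606 of 14767 genes tested were higher and 3766 lower.

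**Figure D4:**
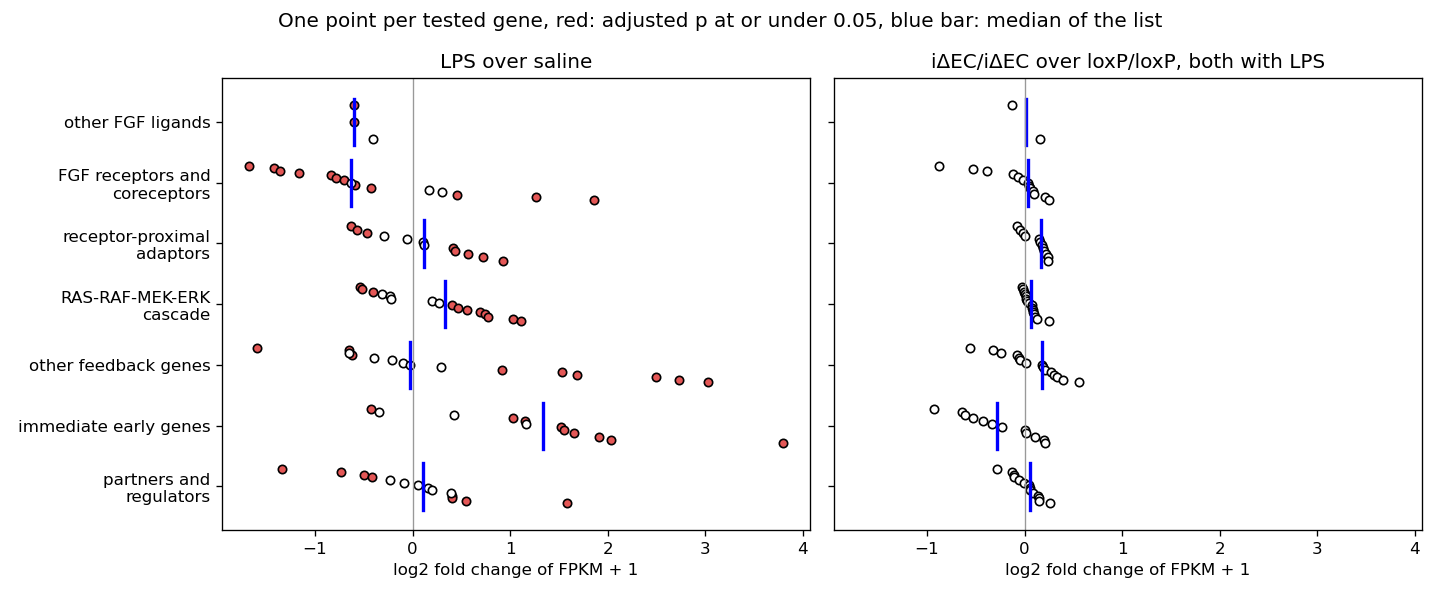
Log2 fold change of FPKM + 1 of every tested gene in 7 lists of the pathway without the 10 genes, LPS over saline on the left and iΔEC/iΔEC over loxP/loxP on the right, red where called and with a blue bar at the median of the list. In LPS over saline the receptor list has its median at -0.63 and the immediate early list at 1.34, and on the right no gene is called.

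The second experiment asks whether the genes differ when Fgfr1 is removed from ECs of mice given LPS. Fgfr1 itself was at 2.90, 2.91 and 2.60 FPKM in loxP/loxP libraries 1 to 3 and at 0.682, 1.41 and 1.15 FPKM in iΔEC/iΔEC libraries 1 to 3. All 3 iΔEC/iΔEC libraries were below every loxP/loxP library, and Fgfr1 reads remained in each of them (111 to 236). The log2 fold change was -0.88 (95% interval -1.26 to -0.50, limma adjusted p = 0.962 over 14945 genes). No gene passed the adjusted p, so that 0 of the 9 tested genes were called, beside 0.0% of all genes. At an unadjusted p under 0.05, 661 genes were counted (4.42%). With the replicate number as a block, which these libraries appear to share, 1154 genes (7.72%) were counted and still 0 called, and by limma-voom on read numbers 608 genes were counted and 0 called.

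None of the 9 had groups that did not overlap, beside 10.1% of all genes tested. Of the 9, Spry4 had the largest log2 fold change in the main fit. Spry1 was larger without loxP/loxP 1 (0.66 against 0.55 for Spry4) and without iΔEC/iΔEC 3 (0.64 against 0.48). Under endothelial scaling Etv5 was larger in size (-0.54 against 0.36 for Spry4). Spry4 was at 22.3, 19.4 and 32.4 FPKM in loxP/loxP 1 to 3 and at 29.1, 39.9 and 44.3 FPKM in iΔEC/iΔEC 1 to 3. Each iΔEC/iΔEC library was above the loxP/loxP library of the same number, by 0.37, 1.00 and 0.44 on the log2 scale, and loxP/loxP 3 was above iΔEC/iΔEC 1. The mean was 24.7 ± 6.82 FPKM against 37.8 ± 7.80 FPKM (SD, n = 3 in each), and limma gave 0.60 on the log2 scale (SE 0.23, 95% interval 0.05 to 1.16, limma adjusted p = 0.962). With the replicate block the unadjusted limma p was 0.0132 and the adjusted p 0.58, and the two-sided exact permutation p without pairs was 0.2, where 3 against 3 libraries cannot go below 0.1.

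Etv5 was lower in all 3 pairs, at 5.76, 7.03 and 8.04 FPKM in loxP/loxP 1 to 3 against 4.91, 6.47 and 4.62 FPKM in iΔEC/iΔEC 1 to 3. The ranges overlapped, and the log2 fold change was -0.33 (95% interval -0.71 to 0.05, limma adjusted p = 0.962). Spry1 was at 24.6, 17.6 and 11.0 FPKM against 22.6, 31.9 and 15.9 FPKM, higher in 2 of 3 pairs, with a log2 fold change of 0.40 (95% interval -0.41 to 1.21, SE 0.34 without and 0.20 with the replicate block). Leaving out 1 library moved it to between 0.11 (without loxP/loxP 3) and 0.66 (without loxP/loxP 1), with 0.16 without iΔEC/iΔEC 2 and 0.64 without iΔEC/iΔEC 3. Here the spread among libraries of 1 genotype was larger than the difference.

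Dusp6 varied widely and alike in both genotypes, at 103, 86.3 and 148 FPKM in loxP/loxP 1 to 3 and at 118, 74.4 and 162 FPKM in iΔEC/iΔEC 1 to 3. Library 2 was the lowest and library 3 the highest of each genotype. The log2 fold change was 0.04, with a 95% interval of -0.74 to 0.81 in the fit without pairs. With the replicate block its SE was 0.13 in place of 0.33, and the adjusted p 0.959. Fgf1 was at 10.1, 7.15 and 14.1 FPKM against 15.7, 5.60 and 13.8 FPKM, with a log2 fold change of 0.08 (95% interval -0.86 to 1.02, SE 0.39 without and 0.19 with the replicate block). In both genotypes library 2 was again the lowest.

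The other genes had narrower intervals. Spred1 was at 9.25, 9.40 and 9.47 FPKM against 9.32, 9.47 and 9.16 FPKM, a log2 fold change of -0.01 with a 95% interval of -0.20 to 0.19. All 6 libraries lay between 9.16 and 9.47 FPKM. Spred2 was at 7.77, 6.19 and 7.25 FPKM against 8.66, 5.97 and 8.19 FPKM, with a log2 fold change of 0.08 (95% interval -0.29 to 0.45). Spry2 was at 6.77, 7.82 and 8.01 FPKM against 7.24, 7.15 and 6.53 FPKM, with -0.10 (95% interval -0.34 to 0.15). Fgf2 was at 0.651, 0.565 and 0.732 FPKM against 0.394, 0.583 and 0.516 FPKM, with -0.14 (95% interval -0.46 to 0.18) on 44 to 90 reads per library. Each of these intervals includes 0 and leaves changes within its bounds possible. Etv4 had 13 to 20 reads per library, and its levels of 0.249 to 0.392 FPKM overlapped (two-sided exact permutation p = 0.4).

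Of the pathway lists none had a called gene in this comparison, and their medians lay between -0.28 for the immediate early genes and 0.18 for the other feedback genes, beside 0.01 for all genes. The genes named above for the greatest called change in their list had log2 fold changes of 0.05 (Sdc4), 0.06 (Gpc3), -0.08 (Grb2), -0.02 (Cbl) and 0.20 (Gab1). They were 0.05 in Map2k1, 0.01 in Map2k2, -0.56 in Dusp5, -0.24 in Dusp2 and 0.30 in Ier3. Nr4a1 was at -0.53, Junb at -0.23, Myc at 0.20, Anxa2 at 0.06, Cav1 at 0.06, Atxn1 at -0.11 and Fgf7 at 0.16, and Fgfr4 and Fgf10 were too low to be tested. Of the other genes named above, some lay further from 0, such as Sdc2 (-0.53), Sdc1 (-0.38), Il17rd (0.33) and Lrig1 (-0.32), and some near it, such as Frs3 (-0.05). Groups did not overlap in 3 of 12 immediate early genes, all lower in iΔEC/iΔEC (Fosb at -0.93, Egr3 at -0.64 and Egr2 at -0.43). The same held for 2 of 15 other feedback genes (Epha2 at 0.56 and Lrig1) and at most 1 gene of each other pathway list. These counts stand beside 10.1% of all genes tested. The marker lists overlapped between genotypes, with adjusted exact permutation p of at least 0.6 in the test without pairs. By pairs of the same number, the endothelial mean log2(FPKM + 1) was higher in iΔEC/iΔEC in 3 of 3 (by 0.25, 0.10 and 0.40), the epithelial mean was lower in 3 of 3 (-0.82, -0.46 and -0.90), and so were the mural (-0.18, -0.15 and -0.38) and neutrophil means (-0.58, -0.05 and -0.71). An exact permutation test over 3 pairs cannot go below p = 0.25, and the part of these shifts in the values of the 10 genes was not tested. The epithelial list had the greatest difference of the means, -0.73, with Sftpc at 779 FPKM in loxP/loxP and 353 FPKM in iΔEC/iΔEC on average.

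Both experiments hold a group of mice with intact Fgfr1 given LPS, at 10 mg/kg in WT and at 2 mg/kg in loxP/loxP mice. Their tables were normalized separately, dose and genotype differ, and the loxP/loxP mice had also received tamoxifen, so the means are only set side by side. Dusp6 was at 117 and 112 FPKM, Fgf1 at 9.60 and 10.5 FPKM, Spry4 at 32.1 and 24.7 FPKM, Fgf2 at 0.614 and 0.649 FPKM and Spred2 at 7.12 and 7.07 FPKM in WT and loxP/loxP mice. Spry2 was at 5.58 and 7.53 FPKM, Spred1 at 12.2 and 9.38 FPKM, Spry1 at 21.6 and 17.7 FPKM, and Etv5 at 7.53 and 6.95 FPKM. Etv4 was at 0.132 and 0.340 FPKM, on 2 to 14 and 14 to 20 reads per library.

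**Figure D5:**
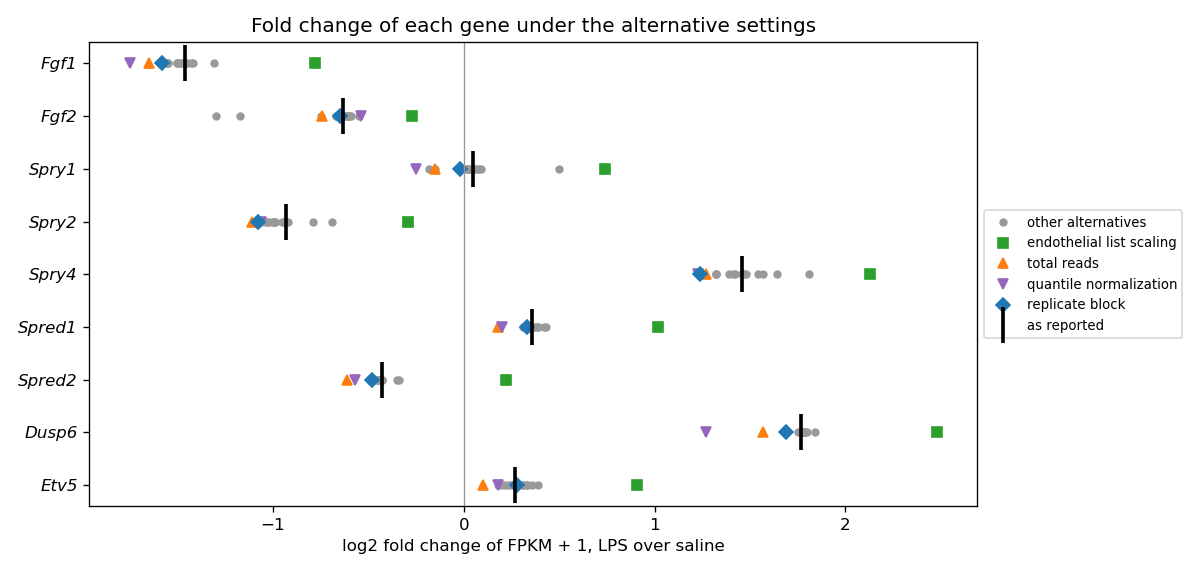
Log2 fold change of FPKM + 1 in LPS over saline for the 9 tested genes under each alternative setting, with the reported value as a black bar. Fgf1, Fgf2 and Spry2 stay below 0 and Spry4, Spred1, Dusp6 and Etv5 above 0 in every setting drawn, Spred2 turns from -0.43 to 0.22 when libraries are scaled on endothelial markers, and Spry1 falls on both sides of 0.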

How the data were processed

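Bulk RNA-seq of bead-isolated mouse pulmonary ECs was used, with 4 saline, 6 LPS, 3 loxP/loxP and 3 iΔEC/iΔEC libraries grouped by the sample labels. The labels and the study name separate mice only as samples, so p-values measure the spread between these samples. The authors aligned the reads to mm10 with HISAT2 (version 2.0.5), counted them with featureCounts (version 1.5.0-p3), tested them with DESeq2 and deposited FPKM for 54532 genes in a table per experiment. Annotation release and strand setting were not given in the sources used here. In the table of the second experiment, 11 symbols had been turned into dates and were replaced by those of the first table by gene ID. FPKM multiplied by gene length gave whole read numbers for 100.0% of values (within 0.1 read), and these recovered reads were used in limma-voom. The errors given by limma-voom come from the spread between libraries, with each value weighted by the trend of that spread with read number.

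Values of each table, rescaled by median-of-ratios factors (which the deposited FPKM already matched to within 0.18%), were compared as log2(FPKM + 1) with limma (version 3.58.1 in R 4.3.3) where the mean over the libraries compared reached 0.5 FPKM, and p-values were adjusted over all genes tested. Here limma on the deposited FPKM was the main test, with limma-voom on the recovered reads as an alternative. The fit was checked on simulated data. Exact permutation tests, two-sided, served for single values and list means. Tables and figures were made in Python 3.11.15 with pandas 2.3.3, numpy 2.4.6, scipy 1.17.1 and matplotlib 3.10.9.

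The genes named are the 10 members, Fgfr1, the 3 genes of each pathway list with the greatest change among those called in LPS over saline (also given for the second comparison), 2 genes of the most similar pattern per member, the overlapping genes Nudt6 and Gm42922 and the most abundant gene of each marker list. Further genes that overlap Fgf1, Fgf2 or Spry4 are not named. They shared no exon bases with the member or were at 0.0 FPKM. Other genes of the pathway lists, named where few rose or fell or where genotypes did not overlap, were added after their values were seen. A gene that this rule names is not reported here. The members and lists were chosen with earlier results of these data known. Replicate numbers are shared by the groups. In the second experiment same-numbered libraries deviated together (r = 0.25, 0.18 and 0.19, against -0.14 to -0.04 for other pairs), which is a hint from the data, and the paired fit, which changed no call, is given for the counts and for the genes whose error it moved most. Alternatives were another pseudocount, filters, scalings, limma-voom, the replicate block and the omission of each library.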

Additional observations from a re-analysis of the deposited data

Results flagged for a closer look

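A library was taken as far from its group where its gap to the nearest other library exceeded the 95% limit of Dixon's ratio, computed on log2(FPKM + 1). Of 40 group values examined 8 had such a library, where chance gives about 1 in 20, or 2.0. No explanation was tested for any of them. The scale matters for some: computed on FPKM, Spry2 in LPS 1 (ratio 0.578) and Spred2 in LPS 2 (0.587) were within the limit of 0.625, and Spry1 in saline 1 (0.834, at 54.9 FPKM) was past the limit of 0.829.

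Saline 1 was the highest of its group in Spry2 (19.1 FPKM against 8.92 to 9.63 FPKM), Spry4 (22.8 against 7.52 to 8.86 FPKM) and Fgfr1 (5.52 against 2.82 to 3.17 FPKM). Saline 3 was the lowest in the mean log2(FPKM + 1) of the lymphocyte list (1.72 against 3.18 to 3.31) and of the fibroblast list (2.21 against 2.70 to 2.77). In the LPS group Spry2 was lowest in LPS 1 (2.89 against 5.26 to 7.0 FPKM), Spred2 was lowest in LPS 2 (5.15 against 6.89 to 8.12 FPKM) and Dusp6 was highest in LPS 6 (149 against 107 to 115 FPKM). LPS 1 also had the lowest summed endothelial markers, 1434 FPKM against 2148 to 3382 FPKM.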

How the results depend on the processing

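In LPS over saline, scaling on the endothelial list moved the counts to 7285 genes higher and 784 lower and the median of all genes to 0.57, and scaling on total reads moved that median to -0.15. A limit of 1 on the log2 fold change left 1768 genes higher, 1011 lower and 3 members called, but 5 members with a pseudocount of 0.1 FPKM or by limma-voom. Spry1 reversed on total reads (-0.15), under quantile normalization (-0.25), with the replicate block (-0.02) and in 2 of the 10 fits that left out 1 library, over all of which it ranged from -0.18 to 0.50. Spred2 reversed under endothelial scaling (0.22). With the replicate block, over 8 libraries whose numbers did not pair (r = 0.10, -0.16, -0.21 and -0.12 for same-numbered libraries), 5 members were called, and Spry4 was at 1.24 (limma adjusted p = 0.0553) and Spred1 at 0.33 (0.121). Dusp6 and Fgf1 kept their direction and call under all alternatives run.

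In iΔEC/iΔEC over loxP/loxP no setting gave a call. Over the 6 fits that left out 1 library, values ranged from -0.17 to 0.50 in Fgf1 (3 of them reversed), -0.02 to 0.00 in Spred1 (1 reversed), -0.01 to 0.23 in Spred2 (1 reversed), -0.23 to 0.33 in Dusp6 (3 reversed), 0.11 to 0.66 in Spry1, 0.45 to 0.81 in Spry4, -0.45 to -0.23 in Etv5, -0.16 to -0.05 in Spry2 and -0.18 to -0.09 in Fgf2. Under endothelial scaling Fgf1 was at -0.15, Spred2 at -0.14 and Dusp6 at -0.22, and Dusp6 was at -0.03 on total reads and -0.05 under quantile normalization. The paired fit with the replicate block changed no call (0 genes). The causes of these shifts were not tested. Etv4, with 0 to 20 reads per library, was below the filter, and with no filter it was not called in either comparison.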
